A study of Mus musculus with 9 samples.

Results

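The signalling lymphocytic activation molecule (SLAM) family was examined in mouse blood as 9 genes, chosen by symbol alone from the 20926 genes listed in the expression table. These were the receptors Slamf1, Slamf6, Slamf7, Slamf8, Slamf9, Cd48, Cd84 and Ly9 and the adaptor Sh2d1a. All 9 symbols were listed, and all 9 passed the filter on low values.

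The samples were labelled as blood leukocytes of male DBA/1 mice aged 7 weeks, with 3 libraries in each of 3 groups. That age is the age at division into groups, before immunisation, so the arthritic mice were older when bled. The age at bleeding is not stated. The control group (Ctrl) had no induced arthritis and was not irradiated. The CIA group had collagen-induced arthritis, a joint inflammation raised by immunising mice with chick type II collagen in adjuvant, and was not irradiated. The CIA+THz group had the same arthritis, and its swollen ankle joints were exposed to a 0.1 THz wave for 30 min daily over 14 days. Irradiated mice were held under isoflurane, which the methods do not mention for the other groups, so that irradiation and anaesthesia cannot be told apart. The comparison of CIA with Ctrl asked what arthritis did to blood transcripts, and that of CIA+THz with CIA asked what local irradiation did in arthritic mice. The labels do not say how many mice stand behind each library, so the p-values measure only the spread between these libraries.

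SLAM receptors are cell surface proteins of blood cells with immunoglobulin-like domains, and most of them bind a copy of themselves on the neighbouring cell. Phosphorylated tyrosine motifs in the tails of Slamf1, Slamf6, Cd84 and Ly9 recruit small SH2 adaptors, above all SAP, the product of Sh2d1a, which brings in the kinase Fyn. Slamf7 signals through other adaptors, the EAT-2 proteins. Cd48 has no tail of its own, being held by a lipid anchor, and the short tails of Slamf8 and Slamf9 lack the tyrosine motif. The family is known for tuning T cell help to B cells, natural killer (NK) cell killing and phagocyte activity.

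Values were FPKM, fragment counts scaled to transcript length and to the mapped fragments of the library, and were rescaled so that most genes sat at the same level in every library. Relative sequencing depth, read from the step size of low values with Ctrl replicate 1 set to 1, was 1 to 1.10 in Ctrl, 1.01 to 1.27 in CIA and 1.36 to 1.88 in CIA+THz. Absolute depth is unknown. Although labelled as leukocytes, the libraries held red cell transcripts: Alas2, the haem synthesis enzyme of erythroid cells, took 14.4% to 16.7% of the summed FPKM in Ctrl and CIA and 11.4% to 14.0% in CIA+THz. The 4 erythroid markers listed, Alas2 among them, summed to 69067 to 103589 rescaled FPKM in Ctrl, 87100.3 to 97815 in CIA and 47419 to 65410.2 in CIA+THz. The irradiated libraries stood apart in this sum, but less so marker by marker. Against CIA, 3 of the 4 were lower in CIA+THz, with a median log2 difference of −0.11. Against Ctrl, 3 of the 4 were lower in CIA (median −0.56) and all 4 in CIA+THz (median −0.65). The part of the red cell transcripts in the differences of CIA+THz from the other groups was not tested. Markers of T cells, B cells, NK cells, monocytes, neutrophils and platelets were also present. In blood RNA of this kind, fewer cells of a type and less RNA per cell cannot be told apart.

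The order of the family by expression level was nearly the same in all 3 groups. Cd84 stood first with a mean of 245 rescaled FPKM over the 9 libraries, which ranked it 266 among all genes. Slamf1 followed at 76.8, without overlap with its neighbours in the order in any group. Slamf6 at 34.5, Ly9 at 33.3 and Cd48 at 31.5 overlapped one another as neighbours, and Cd48 led these 3 only in CIA. Sh2d1a at 17.1 and Slamf7 at 8.13 came next and were separated from each other and from the genes beside them in every group. Slamf8 at 1.01 and Slamf9 at 0.547 were last and overlapped each other.

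The 8 receptor genes all lie on chromosome 1, in the GRCm38 build to which the mm10 alignment of the submitters' notes corresponds. Ly9, Slamf7, Cd48, Slamf1, Cd84 and Slamf6 form a block of 365 kb at chr1:171588624-171953170. A gap of 522 kb separates Slamf6 from Slamf9, which starts at position 172475358. The far end of Slamf8, at position 172590568, lies 112 kb beyond the end of Slamf9. Sh2d1a lies on chromosome X, at chrX:42502453-42529330. Ly9, on the minus strand, sits inside the span of Cd244a on the plus strand. Their annotated exons share 0 bases, but the strand setting of the counting is not given in the sources used here.

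**Figure D1:**
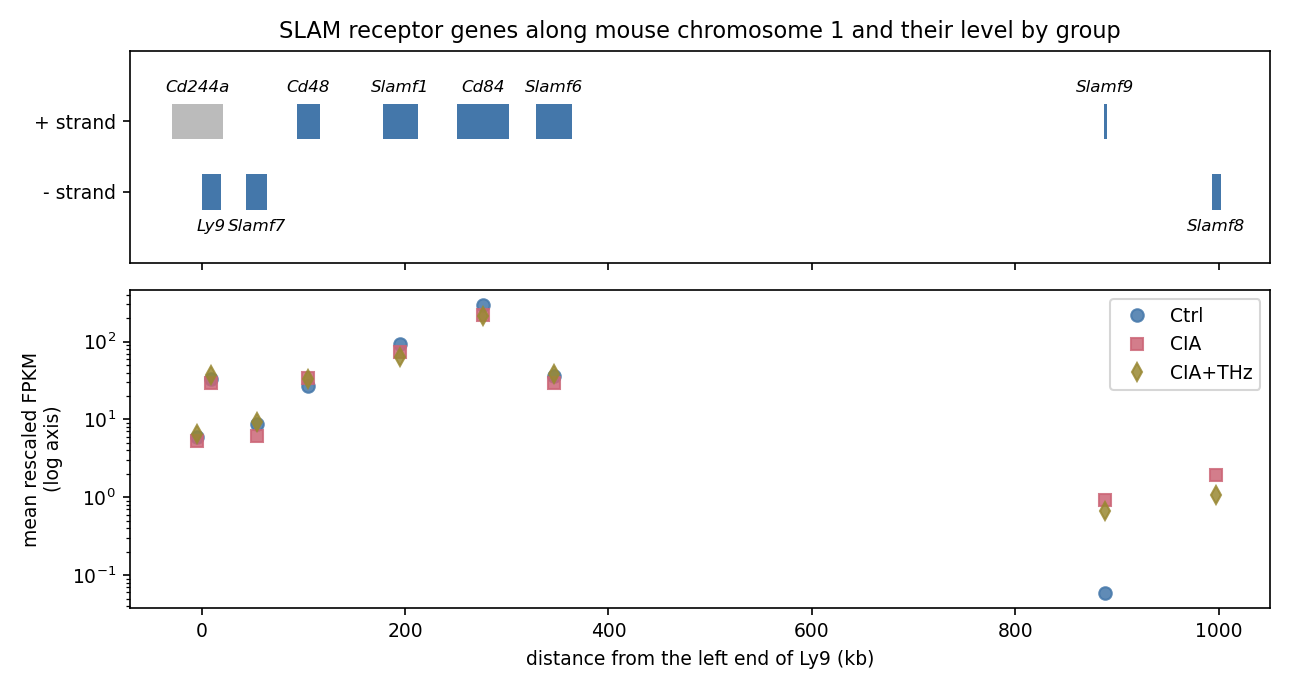
The upper panel draws the receptor genes (blue) and Cd244a (grey) to scale by strand, as distance in kb from the left end of Ly9, and the lower panel gives the mean rescaled FPKM of each group (3 libraries) on a log axis at the middle of each gene. The pair of genes at the right, Slamf9 and Slamf8, have the lowest levels, and Slamf8 has no Ctrl point because it was listed at 0 there.

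A gene was called between a pair of groups by the study's own criterion, an unadjusted p under 0.05 with a log2 difference above 0.67 in size, here with limma's moderated test on log2(rescaled FPKM + 0.1) over 12366 genes. Between CIA and Ctrl 2 of the 9 genes were called, Slamf8 and Slamf9, both higher, where 9.04% of all genes were called and 4.79% were called higher. These 2 reached the filter on low values only through the arthritic libraries, so their calls describe a difference that entry into the test already required. Of the 7 members that passed the filter in Ctrl itself, 0 were called in any pair of groups. In CIA against Ctrl, 4 of the 9 had an unadjusted p under 0.05 (Cd84 and Slamf6 besides), against 17.3% of all genes. Between CIA+THz and CIA 0 of the 9 were called, against 4.54% of all genes, and 3 of the 9 had an unadjusted p under 0.05, all higher (Slamf6, Ly9 and Slamf7), against 13.2% in either direction and 5.89% higher. Between CIA+THz and Ctrl the 2 called were again Slamf8 and Slamf9, both higher, against 7.88% called and 4.64% called higher, and 4 of the 9 had an unadjusted p under 0.05 (Cd84 and Slamf1 besides), against 18.1%. The last comparison shares its Ctrl libraries with the first, so the repeat is not a second observation of the Ctrl level. Across the 3 groups, limma's moderated F-test called 5 of 9 at an unadjusted p under 0.05 (Cd84, Slamf1, Slamf6, Slamf8 and Slamf9), against 21.3% of all genes. After Benjamini-Hochberg adjustment over all genes, 0 of 9 remained in each pair of groups, where 0.154%, 0% and 0.105% of genes passed. In the adjusted F-test Slamf8 passed (adjusted p = 0.0127), against 2.53% of genes. Slamf8 and Slamf9 entered the F-test, too, only through the arthritic libraries, so the reservation on their pair calls also holds for these counts.

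**Figure D2:**
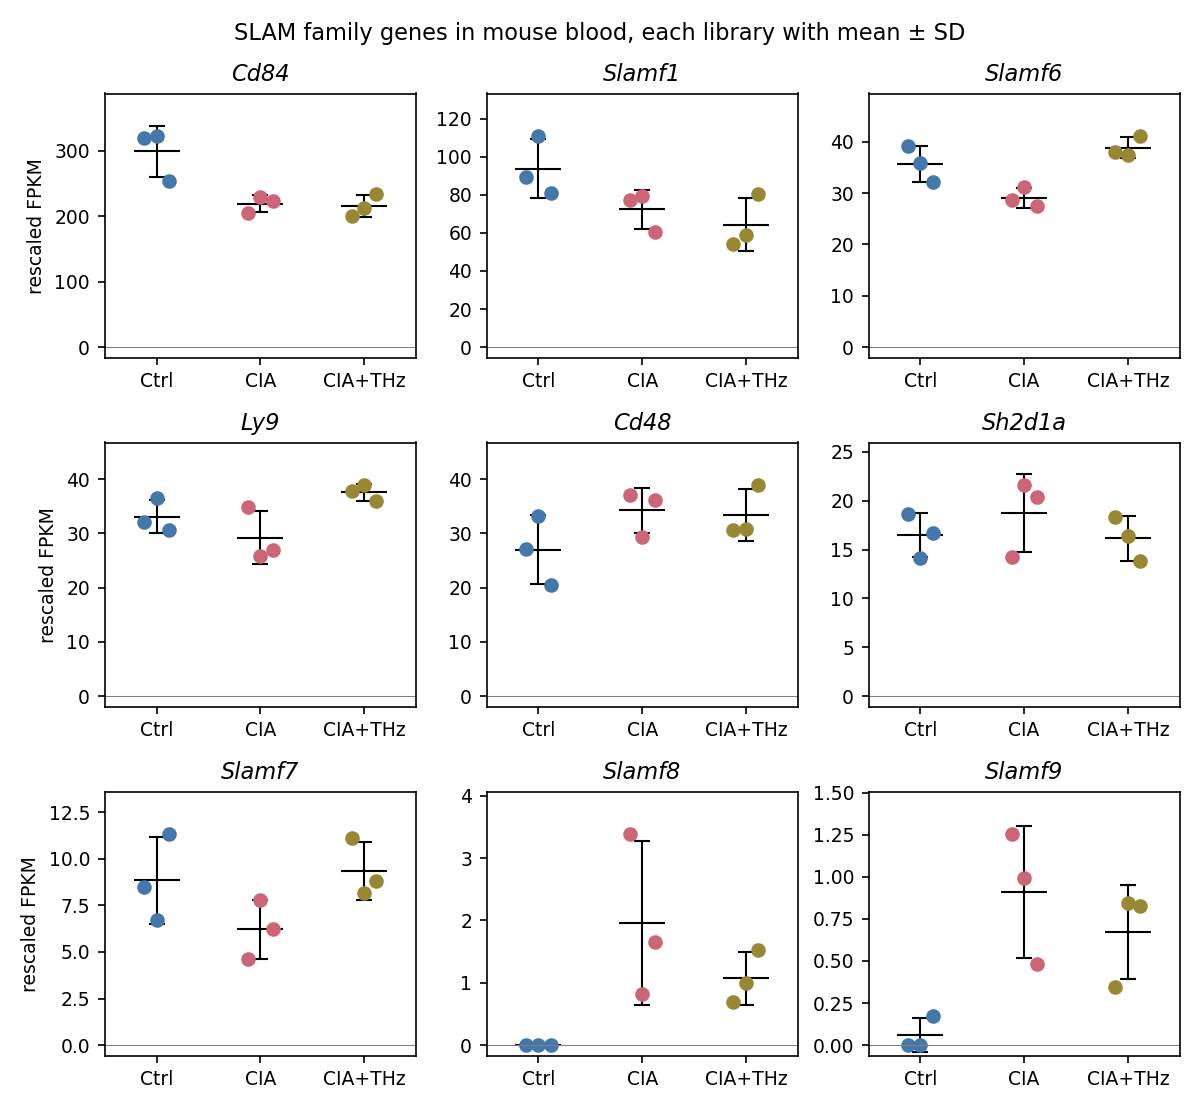
Rescaled FPKM of the 9 SLAM family genes, with 1 point per library, and a horizontal mark and bar for the mean ± SD of 3 libraries per group; each panel has its own axis starting at 0. Slamf8 and Slamf9 lie near 0 in Ctrl and above it in every CIA and CIA+THz library, and Cd84 is lower in both arthritis groups than in all 3 Ctrl libraries.

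Slamf8 and Slamf9 were near 0 in healthy blood and above it in arthritic blood. Slamf8, a receptor of myeloid cells known for restraining oxidant production in macrophages, was listed at 0 in all 3 Ctrl libraries. It stood at 3.39, 0.823 and 1.66 rescaled FPKM in CIA (mean 1.96 ± 1.31, SD, n = 3) and at 0.690, 0.992 and 1.53 in CIA+THz (1.07 ± 0.425, SD, n = 3). Every arthritic library was thus above every Ctrl library, as for 5.68% of all genes tested, and the 2 arthritis groups overlapped. Of the genes tested, 1.52% were listed at 0 in all Ctrl libraries, and 0.113% (14 genes) were so listed while being above 0 in all 6 arthritic libraries. This pattern was taken from the values of Slamf8 itself. A gene at 0 in Ctrl could enter the test only through its arthritic libraries, so these shares are a description and not a test. As a description of a gene that entered the test through its high groups, the limma adjusted p was 0.0562 for CIA and 0.0582 for CIA+THz, each against Ctrl. No fold is given against a group at 0. The exact two-sided permutation test gave p = 0.1 in both, which is the smallest that 3 libraries against 3 allow. What 1 read is worth for Slamf8 is not known, so no limit can be set on its level in Ctrl.

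Slamf9, the family member nearest to Slamf8 on the chromosome and likewise a receptor of myeloid cells, had values of 0, 0 and 0.175 rescaled FPKM in Ctrl. It stood at 1.26, 0.991 and 0.481 in CIA (0.909 ± 0.394, SD, n = 3) and at 0.347, 0.844 and 0.825 in CIA+THz (0.672 ± 0.281, SD, n = 3). The lowest arthritic library lay above the highest Ctrl library, with no overlap. With the same reservation, the limma adjusted p was 0.108 for CIA and 0.137 for CIA+THz against Ctrl, and the exact permutation p was 0.1 in both. With a filter at a mean of 1, Slamf9 was not tested, and with a pseudocount of 1 it missed the fold limit in CIA+THz against Ctrl (0.65 on the log2 scale).

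Between irradiated and untreated arthritis, neither gene was separated. The log2 difference of CIA+THz from CIA was −0.67 for Slamf8 (SE 0.54, 95% interval −1.96 to 0.62, limma adjusted p = 0.632) and −0.38 for Slamf9 (SE 0.48, interval −1.53 to 0.77, adjusted p = 0.767). Both intervals include 0 and are wide. Single libraries moved the values: Slamf8 ran from −0.18 without CIA replicate 1 to −1.14 without CIA replicate 2, and Slamf9 from −0.026 without CIA+THz replicate 1 to −0.73 without CIA replicate 3.

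The 8 monocyte markers, like this pair, were higher in CIA than in Ctrl. Their summed level was 674 to 723 rescaled FPKM in Ctrl, 1093 to 1262 in CIA and 895 to 942 in CIA+THz, and 0 of the 8 were at 0. All 8 had a positive difference in CIA against Ctrl (median log2 difference 0.99, 5 of 8 called, against a median of −0.0051 and 9.04% called over all genes). All 8 had a negative difference in irradiated against untreated arthritis (median −0.37, 2 of 8 called, against 4.54% of all genes), although with FPKM as deposited 3 of the 8 were positive there. A separate list of 6 patrolling monocyte markers summed to 130 to 163 in Ctrl, 113 to 154 in CIA and 157 to 182 in CIA+THz. Of these, 4 had a positive difference in CIA against Ctrl (median 0.19), and 5 in irradiated against untreated arthritis (median 0.34). Over the 9 libraries, Slamf8 had a Pearson's r of 0.93 with the monocyte list and 0.66 with the B cell list. With the plasma cell and neutrophil lists it was −0.94 and −0.66. For Slamf9 these 4 values were 0.82, 0.85, −0.83 and −0.73. They pool the 3 groups, and the Ctrl values at or near 0 weigh on them. The part of RNA from any of these cell types in the Slamf8 and Slamf9 result was not tested.

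Because Slamf8 and Slamf9 were both near 0 in Ctrl and above it in arthritic blood, the 250 bases before their start sites are shown. Their Pearson's r over the 9 libraries was 0.91, a figure on which the Ctrl values at or near 0 weigh. Within CIA the lowest library was replicate 2 for Slamf8 and replicate 3 for Slamf9, while within CIA+THz it was replicate 1 for both. The sequences came from the RefSeq promoter table for GRCm38.p6, which held 7 of the 9 genes. Ly9 and Sh2d1a had no entry. Capitals mark the longest word that both sequences share, GAAGCACGTG, and in Slamf9 the letters GAGGAAGT, a site of the myeloid transcription factor PU.1. Slamf8 is at chr1:172590569-172590818 on the minus strand, and Slamf9 is at chr1:172475110-172475359 on the plus strand.
Slamf8: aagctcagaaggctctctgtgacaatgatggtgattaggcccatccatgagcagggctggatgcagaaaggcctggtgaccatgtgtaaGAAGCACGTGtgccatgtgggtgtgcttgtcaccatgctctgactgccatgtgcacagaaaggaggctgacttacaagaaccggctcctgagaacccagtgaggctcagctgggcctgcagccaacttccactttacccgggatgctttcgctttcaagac
Slamf9: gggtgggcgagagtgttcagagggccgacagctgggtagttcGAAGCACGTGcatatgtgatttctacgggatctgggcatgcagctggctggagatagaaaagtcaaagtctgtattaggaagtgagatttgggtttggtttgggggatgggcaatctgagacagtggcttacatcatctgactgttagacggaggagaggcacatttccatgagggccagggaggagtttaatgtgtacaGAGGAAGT

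The shared word began 161 bases before the start of Slamf8 and 208 bases before that of Slamf9, on the strand of the gene in both. It was picked after the sequences were seen, and it was held on either strand by 21 of 32851 promoter windows of this length (0.0639%). It contains CACGTG, the palindromic E-box, which 6.02% of the windows held, and which among the 7 SLAM genes was found only in these 2. GAGGAAGT was found in 2.44% of the windows and, of the 7, in Slamf9 alone, ending at the last base before the RefSeq start. The GENCODE start given above lies 2 bases earlier, so the last 2 of these letters are inside the GENCODE gene. The TATA box letters TATAAA, present in 12.4% of the windows, were in 0 of the 7. These are matches of letters and carry no measurement of binding.

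Cd84 and Slamf1, the most abundant of the family and both known as self-binding receptors on lymphocytes and platelets, were lower in arthritic blood. Cd84 was at 319, 323 and 254 rescaled FPKM in Ctrl (299 ± 38.6, SD, n = 3), at 204, 230 and 223 in CIA (219 ± 13.3, SD, n = 3) and at 201, 213 and 234 in CIA+THz (216 ± 17.0, SD, n = 3). All 6 arthritic libraries were below all 3 Ctrl libraries, a pattern shared by 5.6% of the genes tested. The log2 difference was −0.44 in CIA (SE 0.13, limma p = 0.0124, adjusted p = 0.179) and −0.46 in CIA+THz (SE 0.13, p = 0.00792, adjusted p = 0.146) against Ctrl, with an exact permutation p of 0.1 in both. Neither reached the fold limit of 0.67, but Cd84 passed the F-test across the 3 groups at an unadjusted p of 0.00536 (adjusted p = 0.0923). CIA+THz and CIA were nearly level, with a difference of −0.022 (95% interval −0.25 to 0.21).

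Slamf1, also called CD150 and the founding member of the family, was at 89.4, 111 and 80.7 rescaled FPKM in Ctrl (93.7 ± 15.6, SD, n = 3). It was at 77.2, 79.5 and 60.6 in CIA (72.4 ± 10.3, SD, n = 3) and at 53.9, 58.9 and 80.1 in CIA+THz (64.3 ± 13.9, SD, n = 3). Its highest arthritic library, CIA+THz replicate 3, lay just under its lowest Ctrl library. The log2 difference from Ctrl was −0.37 in CIA (SE 0.16, limma p = 0.0586, adjusted p = 0.306) and −0.55 in CIA+THz (SE 0.18, p = 0.0177, adjusted p = 0.187), with an exact permutation p of 0.1 in both. Slamf1 passed the 3-group F-test at an unadjusted p of 0.0289 (adjusted p = 0.188). That call was lost without Ctrl replicate 1, Ctrl replicate 2, CIA+THz replicate 1 or CIA+THz replicate 2. It was also lost with FPKM as deposited, without a trend in limma's variance, and by one-way analysis of variance on linear values. Without CIA+THz replicate 3, Slamf1 was called between CIA+THz and Ctrl (−0.72).

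The scale of the irradiated group bears on these values. With FPKM as deposited, the median log2 difference of all genes was 0.29 between CIA+THz and CIA and 0.33 between CIA+THz and Ctrl, compared with 0.025 and 0.039 after rescaling. On that scale Cd84 differed by −0.16 (limma adjusted p = 0.314) and Slamf1 by −0.24 (adjusted p = 0.305) between CIA+THz and Ctrl, both below the shifted median. The calls over all genes moved with it, from 363 higher and 198 lower to 1133 higher and 66 lower between CIA+THz and CIA, and from 574 and 401 to 1600 and 120 between CIA+THz and Ctrl.

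Platelet markers showed no such split between Ctrl and CIA. The sum of the 5 was 3797 to 4592 rescaled FPKM in Ctrl, 3637 to 4500 in CIA and 3038 to 3669 in CIA+THz, with 0 of 5 at 0 and 0 of 5 called in any pair. All 5 had a lower mean in irradiated than in untreated arthritis (median −0.50), or 4 of 5 as deposited. The 7 neutrophil markers summed to 12374 to 20889 in Ctrl, 14211 to 18384 in CIA and 10518 to 11964 in CIA+THz, with 0 of 7 at 0. Their difference from Ctrl was negative in 5 of 7 in CIA (1 called) and in 7 of 7 in CIA+THz (3 called), or 6 of 7 as deposited, where 9.04% and 7.88% of all genes were called. The 6 plasma cell markers summed to 108 to 133 in Ctrl, 50.5 to 59.0 in CIA and 46.4 to 51.7 in CIA+THz. Their difference from Ctrl was negative in 5 of 6 in CIA (4 called) and in 5 of 6 in CIA+THz (3 called). Between CIA+THz and CIA 4 of the 6 were higher and 2 lower (median 0.51), with 1 called, higher, against 4.54% of all genes. The part of these cell types, and of the erythroid transcripts given above, in the levels of Cd84 and Slamf1 was not tested.

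In Slamf6, Ly9 and Slamf7, grouped here after their values were seen, the mean was lowest in CIA and higher in CIA+THz. Slamf6, a self-binding receptor of T, B and NK cells, was at 39.1, 35.8 and 32.2 rescaled FPKM in Ctrl (35.7 ± 3.46, SD, n = 3). It was at 28.7, 31.2 and 27.4 in CIA (29.1 ± 1.92, SD, n = 3) and at 37.996, 37.3 and 41.2 in CIA+THz (38.8 ± 2.05, SD, n = 3). The CIA libraries lay below all others, while Ctrl and CIA+THz overlapped. The log2 difference was −0.29 in CIA against Ctrl (SE 0.12, limma p = 0.0489, adjusted p = 0.287) and 0.42 in CIA+THz against CIA (SE 0.095, p = 0.00345, adjusted p = 0.210), with an exact permutation p of 0.1 in both. It passed the 3-group F-test at an unadjusted p of 0.0134 (adjusted p = 0.136), a call lost without CIA replicate 3.

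Ly9, a self-binding receptor found widely on T and B cells, was at 32.0, 36.5 and 30.7 rescaled FPKM in Ctrl (33.1 ± 3.07, SD, n = 3). It was at 34.8, 25.9 and 27.0 in CIA (29.2 ± 4.85, SD, n = 3) and at 37.9, 39.0 and 35.9 in CIA+THz (37.6 ± 1.55, SD, n = 3). All CIA+THz libraries were above all CIA libraries, although CIA replicate 1 came close. The log2 difference between them was 0.37 (SE 0.13, limma p = 0.0255, adjusted p = 0.314, exact permutation p = 0.1). Of the 6 fits that each left out 1 library, 2 kept an unadjusted p under 0.05 for Ly9, and for Slamf6 all 6 did.

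Slamf7, known from NK and plasma cells, where it signals through the EAT-2 adaptors, was at 8.47, 6.71 and 11.3 rescaled FPKM in Ctrl (8.84 ± 2.34, SD, n = 3). It was at 4.64, 7.76 and 6.21 in CIA (6.21 ± 1.56, SD, n = 3) and at 11.1, 8.15 and 8.81 in CIA+THz (9.35 ± 1.55, SD, n = 3). CIA overlapped Ctrl but not CIA+THz. The log2 difference of CIA+THz from CIA was 0.60 (SE 0.23, limma p = 0.0330, adjusted p = 0.337, exact permutation p = 0.1), short of the fold limit. It passed that limit without CIA replicate 2 (0.78) or without CIA+THz replicate 2 (0.69), and in the other 4 fits that left out 1 library, where it was 0.41 to 0.64, the unadjusted p was above 0.05.

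In these 3 genes the irradiated libraries did not overlap with the untreated arthritic ones and were higher, a pattern found in 9.38% of all genes tested. With FPKM as deposited, Slamf6 (0.69) and Slamf7 (0.88) were called in CIA+THz against CIA, where 9.67% of genes were called and the median of all genes was itself 0.29. On that scale 7 of the 9 members had a higher mean in irradiated than in untreated arthritis, compared with 3 of 9 after rescaling.

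T cell markers moved in the same way as these 3. The summed level of 8 of them was 304 to 340 rescaled FPKM in Ctrl, 252 to 271 in CIA and 311 to 429 in CIA+THz, with 0 of 8 at 0. All 8 were lower in CIA than in Ctrl (median log2 difference −0.30, 0 called, against 9.04% of all genes), and all 8 were higher with irradiation than without it (median 0.34, 1 called, Cd5, against 4.54%), a direction that all 8 kept with FPKM as deposited. All 5 CD8 and cytotoxic markers were lower in CIA than in Ctrl (2 called) and had a positive difference with irradiation (1 called). The 6 NK markers tested were summed to 105 to 141 in Ctrl, 38.4 to 101 in CIA and 64.8 to 110 in CIA+THz, and Klra8 was at 0 throughout. In CIA 5 of the 6 were below Ctrl (3 called), and with irradiation 5 of the 6 had a positive difference (1 called). The 8 B cell markers ran from 423 to 521 in Ctrl, 495 to 626 in CIA and 569 to 738 in CIA+THz. Unlike the 3 genes, 7 of the 8 were above Ctrl in CIA (1 called), and 6 had a positive difference with irradiation (0 called). Over the 9 libraries, Pearson's r with the T cell list was 0.59 for Slamf6, 0.70 for Ly9, 0.67 for Slamf7 and −0.30 for Sh2d1a. The share of these cell types in the differences of Slamf6, Ly9 and Slamf7 was not tested.

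**Figure D3:**
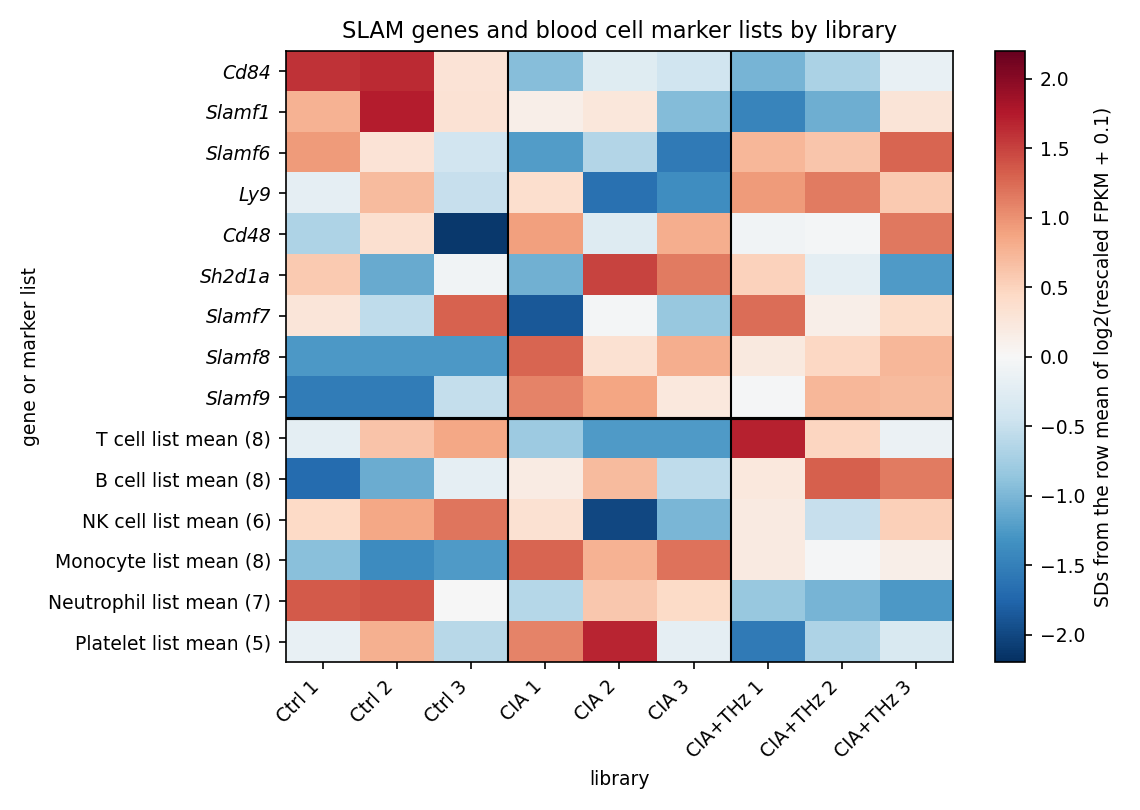
Each row is a SLAM family gene or the mean of a marker list (number of genes in brackets), and each column is a library; colour gives SDs from the row mean of log2(rescaled FPKM + 0.1), so rows show pattern and not level. Slamf8 and Slamf9 are lowest in Ctrl as the monocyte row is, and Slamf6 is lowest in CIA as the T cell row is.

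Cd48 and Sh2d1a, the ligand and the adaptor of the set, were not called in any comparison. Cd48, the lipid-anchored partner of Cd244 and Cd2, was at 27.2, 33.2 and 20.5 rescaled FPKM in Ctrl (27.0 ± 6.34, SD, n = 3). It was at 37.1, 29.4 and 36.2 in CIA (34.2 ± 4.22, SD, n = 3) and at 30.5, 30.8 and 39.0 in CIA+THz (33.4 ± 4.77, SD, n = 3). The groups overlapped, with log2 differences of 0.36 for CIA against Ctrl (95% interval −0.10 to 0.82, limma adjusted p = 0.388) and −0.034 for CIA+THz against CIA (interval −0.37 to 0.31).

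Sh2d1a, whose loss in people causes X-linked lymphoproliferative disease, was at 18.6, 14.1 and 16.7 rescaled FPKM in Ctrl (16.5 ± 2.25, SD, n = 3). It was at 14.2, 21.6 and 20.4 in CIA (18.7 ± 3.99, SD, n = 3) and at 18.4, 16.3 and 13.8 in CIA+THz (16.2 ± 2.30, SD, n = 3). All 3 groups overlapped. The log2 difference was 0.17 for CIA against Ctrl (95% interval −0.30 to 0.64, limma adjusted p = 0.695) and −0.20 for CIA+THz against CIA (interval −0.66 to 0.26, adjusted p = 0.693).

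**Figure D4:**
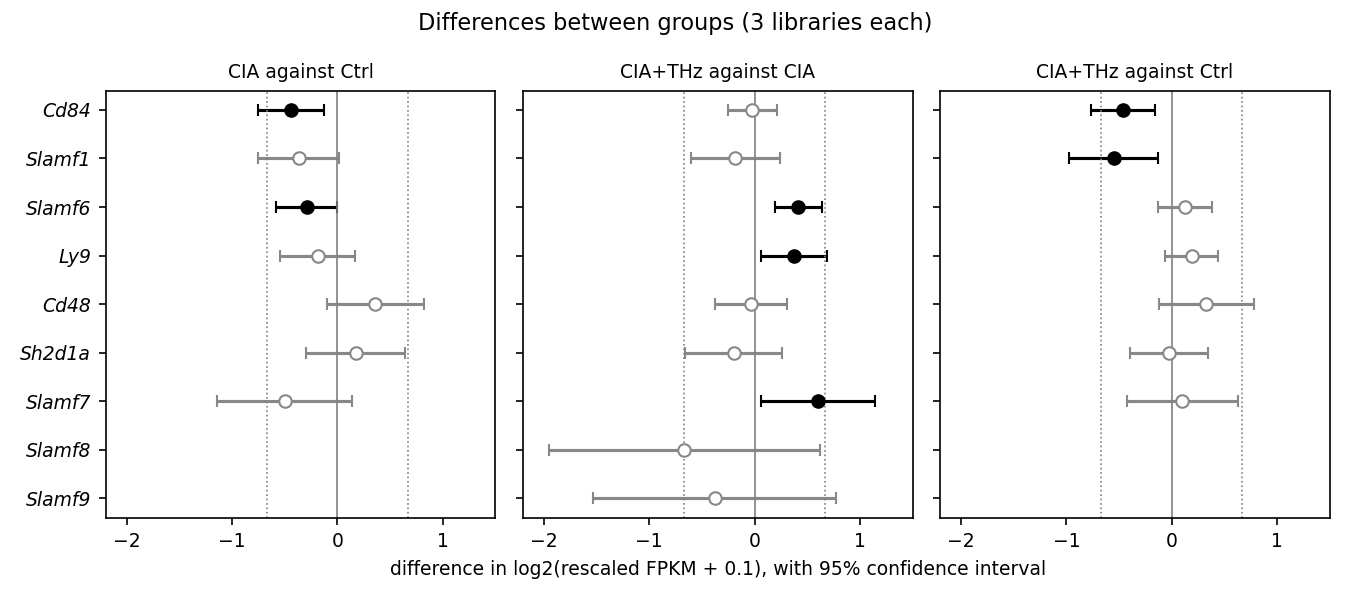
Differences in log2(rescaled FPKM + 0.1) with 95% confidence intervals for each gene in the 3 comparisons of 3 libraries with 3; filled black points have an unadjusted limma p under 0.05, dotted lines mark the fold limit of 0.67, and Slamf8 and Slamf9 are left out against Ctrl, where values at 0 make the difference depend on the pseudocount. No drawn point passes both limits, and the irradiated group differs from CIA at p under 0.05 in Slamf6, Ly9 and Slamf7.

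The proteins that work with these receptors were examined as a list of 20 genes, of which 19 were tested and Sh2d1b2 was listed at 0 in every library. In CIA against Ctrl 7 were higher and 12 lower (median log2 difference −0.14), and Rasa1, a brake on Ras that binds Dok adaptor proteins, was called. It fell by 0.72 on the log2 scale (SE 0.20, limma adjusted p = 0.160), from a mean of 9.70 to 5.89 rescaled FPKM, as 1 of 19 called where 9.04% of all genes were. The call ended with a pseudocount of 1 (−0.64), without Ctrl replicate 2 (−0.63) and without CIA replicate 2 (−0.61). With irradiation, 10 were above and 9 below their level in untreated arthritis and 0 were called, while 14 were above as deposited. In CIA+THz against Ctrl 8 were higher and 11 lower, and Becn1, an autophagy protein that binds Slamf1 in phagocytes, was called, having fallen by 0.71 (SE 0.23, limma adjusted p = 0.181), as 1 of 19 against 7.88%. This call ended with FPKM as deposited (−0.40), without Ctrl replicate 1 (−0.67) or 2 (−0.55) and without CIA+THz replicate 1 (−0.52). Becn1, Lck, Plcg2, Prkcq, Ptpn11, Ptpn6 and Rasa1, 7 of the 19, were called by the 3-group F-test, against 21.3% of all genes. For Ptpn11, 1 low library weighs on the call. Its CIA+THz values were 20.6, 22.7 and 7.48 rescaled FPKM, and its unadjusted limma p was 0.121 against CIA and 0.0535 against Ctrl.

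Other receptors and adaptors of the pathway were not called in any pair. Cd244a, the NK receptor for Cd48, had means of 5.96, 5.23 and 6.59 rescaled FPKM in Ctrl, CIA and CIA+THz. Cd2, the T cell adhesion receptor that also binds Cd48, had means of 25.7, 23.0 and 27.4, and its difference of 0.25 between CIA+THz and CIA had a limma adjusted p of 0.366. Sh2d1b1, the EAT-2 adaptor used by Slamf7, stayed low at means of 1.25, 1.47 and 1.60.

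Genes within 100 kb of the receptor genes or between them on chromosome 1 were counted for comparison, 23 in the table and 16 tested. Of these 0 were called in CIA against Ctrl (9.04% of all genes), 0 in CIA+THz against CIA (4.54%) and 1, Itln1, in CIA+THz against Ctrl (7.88%), counts too small to set the neighbourhood apart from other genes. Itln1 was lower than in Ctrl by a log2 difference of −0.68 (limma adjusted p = 0.234). Its call ended as deposited (−0.39), with a pseudocount of 1 (−0.49), with all 9 libraries in 1 fit and with replicate number as a block. It also ended without Ctrl replicate 2 or 3 and without CIA+THz replicate 1, 2 or 3, and was kept without Ctrl replicate 1. The median difference of the 16 in CIA against Ctrl was −0.042.

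The genes with the most similar pattern over the 9 libraries were taken by Pearson's r of log2 values among 9747 genes with a mean of at least 1, as a description over libraries that pool the 3 groups. Slamf8 lay closest to Rras (0.99), a small GTPase, Ctss (0.98), the cathepsin S protease of antigen-presenting cells, and Glud1 (0.97). Its own values in the 3 Ctrl libraries were all at 0, which weighs on these figures. Slamf1 lay closest to Tsc22d1 (0.99), Slc44a1 (0.98) and Tpm4 (0.98), a tropomyosin, and Cd84 to Hacd4 (0.97), Lims1 (0.96), an integrin-linked adaptor, and Fbxl2 (0.96). For Slamf6 the closest were Dcaf1 (0.95), Cyfip2 (0.94) and N6amt1 (0.94). For Ly9 they were Gpd1l (0.93), Mad2l1 (0.93) and Kremen1 (0.92), and for Sh2d1a B4galt3 (0.95), Sbno2 (0.94) and Abca7 (0.92). Slamf7 was closest to Sh2b1, Mllt6 and Igf2r, and Cd48 to Psmg2, Polb and Bag5, all between 0.91 and 0.93. Slamf9, with a mean under 1, was not compared.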

How the data were processed

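The authors sequenced total blood RNA in paired-end mode, and the submitters' notes name HISAT2, StringTie, DESeq2 and the mm10 build. The deposited values are FPKM per gene symbol, 1 column per library. The annotation and strand setting are not given in the sources used here.

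FPKM were divided by median-of-ratios factors (0.847 to 1.24) over the 10312 genes above 0 in all 9 libraries. Differences were tested two-sided, pair by pair, on log2(rescaled FPKM + 0.1) with limma 3.58.1 (R 4.3.3, eBayes with trend) over 12366 genes with a mean of at least 0.1. The 0.1 added to each value understates the change of low genes. Exact permutation tests of 3 against 3 libraries cannot go below p = 0.1, the value of every pair without overlap. The fit was tested on simulated data. Every member was named; partners were named if Cd244a, Cd2, EAT-2 adaptors or called; 3 most alike genes per member were named. The members and lists were chosen with earlier results of these data known. Of 12 genes used by every cell, 0 were listed at 0. Correlations of log2 values were 0.934 to 0.963 within groups and 0.923 to 0.957 between them. Positions came from GENCODE M21.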

Additional observations from a re-analysis of the deposited data

How the results depend on the processing

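Counts of called members were recomputed under each alternative, 1 choice at a time. In CIA against Ctrl the count of 2 became 1 with a filter at a mean of 1 and 0 with adjusted p, and was 2 to 2 when libraries were left out in turn. In CIA+THz against CIA the count of 0 became 2 with FPKM as deposited (Slamf6 and Slamf7) and was 0 to 1 with a library left out. In CIA+THz against Ctrl the count of 2 became 1 with a pseudocount of 1, 1 with the filter at 1 and 0 with adjusted p, and was 2 to 3 with a library left out. Across the 3 groups the count of 5 became 1 with adjusted p and 3 by one-way analysis of variance on linear values (Cd84, Slamf6 and Slamf9). It was 7 as deposited, with Cd48, Ly9 and Slamf7 gained and Slamf1 lost, 4 with the filter at 1 (Slamf9 not tested), 4 without a trend (Slamf1 lost), and 4 to 6 with a library left out; Cd48 was gained without Ctrl replicate 2, Slamf7 without Ctrl replicate 2 or CIA replicate 2, and Ly9 without CIA replicate 1. Except where the filter removed Slamf9, the cause was not tested. The signs that reversed belonged to small differences that did not pass the criterion under either setting. As deposited, CIA+THz against CIA became 0.095 for Slamf1, 0.24 for Cd48, 0.26 for Cd84 and 0.078 for Sh2d1a, and CIA+THz against Ctrl became 0.28 for Sh2d1a. With a library left out, CIA+THz against CIA ran from −0.15 to 0.027 for Cd48 and from −0.082 to 0.029 for Cd84, and CIA+THz against Ctrl ran from −0.079 to 0.29 for Slamf7 and from −0.13 to 0.083 for Sh2d1a. Replicate numbers did not pair the libraries, since the deviations of same-numbered libraries correlated at −0.052 to 0.031 in 9 pairs; the fit with the replicate block kept the counts of 2, 0, 2 and 5 members and called 1073, 506, 967 and 2399 of all genes. Absolute depth is unknown, so no limit could be set on Slamf8 and Slamf9 where they are listed at 0.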
